A study of Homo sapiens with 5 samples.

Results

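The genes described here are the receptor tyrosine kinases ALK, EGFR, ERBB2, ERBB3, ERBB4, KIT, PDGFRA and PDGFRB, with the growth factors PTN (pleiotrophin) and MDK (midkine). These 10 of the 19775 genes named on the array were chosen by name, with earlier results of these data known. All of the probe sets annotated to them alone are described, 34 of 54675. The arrays, 5 in number, were Affymetrix U133 Plus 2.0, and the cells were IMR32, an established line from a human neuroblastoma. All of these cells carried a hairpin RNA (shRNA) under doxycycline control, stably transfected and directed at MEIS1, a homeobox transcription factor, and per the labels specific for MEIS1b. The 0 h array came from cells without doxycycline, and 1 array each came from cells after 24, 48, 96 and 192 h of doxycycline. The medium was DMEM with 10% fetal calf serum. Each time point is 1 array, so no value has a replicate. Cells that received doxycycline without this hairpin, and later cultures without doxycycline, were not analysed here, so time in culture, doxycycline and the hairpin cannot be told apart. Whether the transfected cells are 1 clone or a pool is not stated in the labels.

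A receptor tyrosine kinase spans the cell membrane, pairs up when its ligand binds outside, and phosphorylates tyrosines on its own tail. Adaptor proteins bind there and switch on the RAS and ERK cascade and PI3 kinase, while feedback inhibitors such as the Sprouty and DUSP proteins damp the signal. ALK is a neural receptor that is mutated or amplified in some neuroblastomas. Its established ligands are the ALKAL proteins. The heparin-binding factors pleiotrophin and midkine have been reported as ALK ligands too, and they also bind the phosphatase PTPRZ1 and syndecans. KIT, the receptor of stem cell factor, is known from mast cells, melanocytes and germ cells, PDGFRA and PDGFRB from mesenchymal cells, and ERBB3, a neuregulin receptor with a weak kinase, from Schwann cells and their precursors.

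Signals are MAS5 values on a linear scale, where a value of 1 is the floor of the table. Log2 changes were taken after adding 4.7 to each signal, which understates changes of dim probe sets. A probe set entered the tests if the annotation named 1 gene for it and its mean signal over the 5 arrays was at least 17.9, the median of all signals. Of the 34 member probe sets 15 did so, and they cover 8 of the 10 genes. The test was a limma trend of log2 signal on the time step. The slope multiplied by 4 steps is called the fitted change and is given ± its standard error (SE), and a Benjamini-Hochberg adjusted p under 0.05 over 11944 genes is called passing. "Rose" and "fell" are used of genes that passed. The p-values and SEs of this test rest on how far 5 unreplicated arrays lie from a line. The scatter of each gene was drawn towards that of genes of like signal, with 3 residual and 9.07 prior degrees of freedom. A value at 192 h set against 0 h compares 2 arrays and has no test.

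The median signal of all probe sets lay between 16.0 and 19.0 on the 5 arrays. The poly-A spike-in probe sets, RNAs added before labelling, read on average 0.10 higher on the log2 scale at 24 h than at 0 h, and -0.45, -0.61 and -0.25 relative to 0 h at 48, 96 and 192 h. The targeted gene was lower at every induced time: the brighter MEIS1 probe set read 1052, 851.5, 847.2, 857 and 786.6 at 0, 24, 48, 96 and 192 h. MEIS1 did not pass (limma trend -0.33 ± 0.14 on the log2 scale, adjusted p = 0.251). Of the adrenergic neuroblastoma markers 8 of the 9 with a probe set passed the signal filter. Of these 8, the granin genes CHGA and CHGB, 2 in number, rose, against 2.02% of all tested genes. CHGA read 1756.3 at 192 h against 998.2 at 0 h (limma trend 1.04, adjusted p = 0.00833), and CHGB 183.9 against 74.3 (limma trend 1.32, adjusted p = 0.00404). The summed signal of the 9, of which MYCN made up the largest part on each array, was 9878.7, 9830.9, 10902.1, 13010.7 and 11446.1 in order of time. The part of these markers in the changes below was not tested. CHGA did not pass with the spike-in level in the model (adjusted p = 0.0600). MYCN lay between 3957.2 and 4418.4, and GATA3 between 2681 and 3339.5. DBH read 103.3 at 192 h against 137 at 0 h, with higher values in between. TH, the enzyme that makes L-DOPA, read 2.1, 5.5, 4.2, 9.9 and 28.5, with a mean below the filter.

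Among the member genes, PDGFRA, KIT, PTN and MDK fell over the course of induction, by 1.85, 1.17, 1.08 and 0.66 on the log2 scale in the fit. ALK, EGFR, ERBB3 and PDGFRB did not pass, and ERBB2 and ERBB4 were too dim to test. In all, 4 of the 8 tested member genes fell and 0 rose. Over all 11944 genes 3.47% passed in either direction and 1.46% fell. The median fitted log2 change was -0.58 over the 8 tested member genes and 0.003 over all tested genes, and 5 of the 8 were negative. Because the members were chosen with earlier results of these data known, these counts and medians are descriptive and do not test the group.

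**Figure D1:**
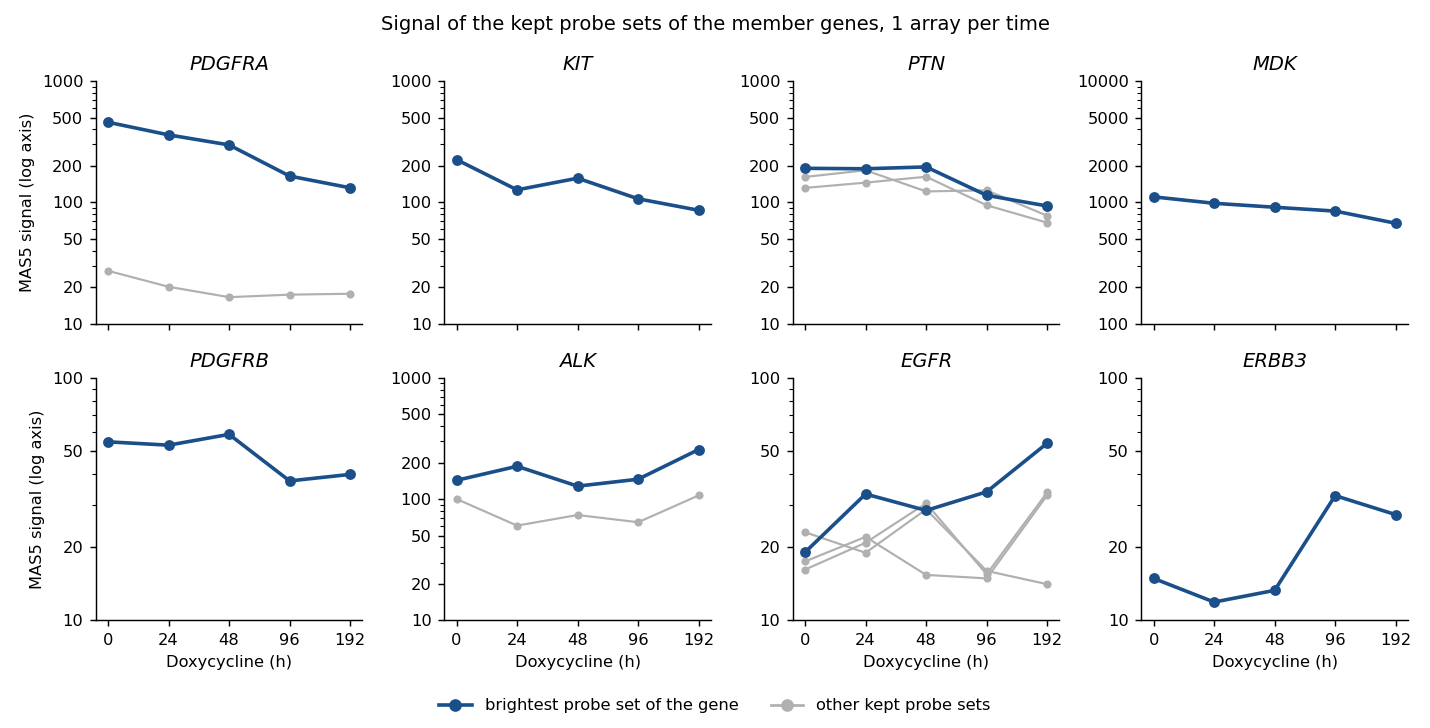
MAS5 signal (log axis) of the 15 probe sets past the signal filter, by gene, against hours of doxycycline (evenly spaced steps, 1 array per time, no replicates). Blue is the brightest probe set of each gene, grey the others. PDGFRA ends at 131.6 at 192 h against 457.3 at 0 h, while the brightest EGFR probe set ends at 53.8 against 19.1.

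PDGFRA, the receptor for several platelet-derived growth factors, fell. Its brightest probe set, 203131_at, read 457.3 without doxycycline, then 359.7, 297.2, 164.5 and 131.6 at 24, 48, 96 and 192 h. Every array was thus lower than the array before it, a pattern that 2.18% of all tested genes showed. The 192 h signal was 29.5% of that at 0 h on the scale with 4.7 added. The fitted log2 change was -1.85 ± 0.18 (SE), with a limma adjusted p of 2.8e-04. In an exact permutation test over the 120 orders of the arrays the two-sided p was 0.0167, the smallest these 5 arrays can give. At 192 h, 0.327% of all tested genes were as low relative to 0 h as PDGFRA.

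The other PDGFRA probe set past the filter, 215305_at, was dimmer: 27.2 at 0 h, then 20.1, 16.5, 17.3 and 17.6. It was highest at 0 h, and its later arrays did not differ in a steady direction. In the fit over all 22487 kept probe sets, of which 2.05% passed and 0.836% fell, it had -0.48 ± 0.43 with a limma adjusted p of 0.690. The remaining PDGFRA probe sets, 1554828_at and 211533_at, stayed between 1 and 9.3, too low to be tested. As the arrays measured bulk RNA, fewer cells with a transcript and less of it per cell cannot be told apart, here and for every gene below.

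PDGFRA is also a gene of mesenchymal cells, so the fibroblast or mesenchymal markers are given beside it. All 9 had a probe set and 6 passed the filter. Of these 6, only COL1A1, a fibrillar collagen gene, passed the threshold, against 3.47% of all tested genes. COL1A1 fell by more than PDGFRA in the fit, reading 584.4, 592, 479.2, 257.8 and 115.1 in order of time (-2.31 ± 0.31, limma adjusted p = 0.00251). The fitted change of COL1A1 was -1.52 without the 192 h array (adjusted p = 0.0235) and -1.18 with the mean of its probe sets (adjusted p = 0.0142). The transcription factor gene TWIST1 read 945.6 at 192 h against 1336 at 0 h without passing (-0.57, adjusted p = 0.0559). The summed signal of the 9 markers, of which VIM made up the largest part on each array, was 3833.3 at 192 h against 5300.6 at 0 h, with a highest value of 5906.8 at 24 h. VIM read 2457.1 at 192 h against 2957 at 0 h and FN1 251.2 against 355.7, but both were above 0 h at 48 and 96 h. COL1A2 and COL3A1 lay between 9.9 and 33.3, and COL1A2 was higher at 192 h (17.5) than at 0 h (9.9). DCN, LUM and PRRX1 lay between 4.7 and 19, with PRRX1 at 17.5 at 192 h against 17.8 at 0 h. The part of such cells in the fall of PDGFRA was not tested.

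KIT, whose ligand is stem cell factor, fell as well. Its only probe set, 205051_s_at, read 224.9 without doxycycline, then 126.6, 158, 106.8 and 85.9 at the induced times in order. All induced arrays lay below the 0 h array, and the 48 h array stood above its neighbours in time. KIT at 192 h was 39.5% of its 0 h level on the scale with 4.7 added, and 0.737% of tested genes were as low. The limma fit gave -1.17 ± 0.25 (SE; adjusted p = 0.0244), and the exact permutation p over array orders was 0.0667. KIT did not pass without the 0 h array (-0.86, limma adjusted p = 0.334), without the 96 h array (adjusted p = 0.0555) or without the 192 h array (adjusted p = 0.117). Markers of mast cells and blood were dim: of the 5 with a probe set 0 passed the filter, their summed signal was 28.1 to 57.7, and the mast cell protease genes CPA3 and TPSAB1 stayed between 2.1 and 11.9.

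PDGFRA and KIT lie next to each other on chromosome 4 among protein-coding genes, by the order in the RefSeq table of GRCh38.p14. The genes beside them were looked up after the values of this pair had been seen. FIP1L1, CHIC2 and GSX2 on the PDGFRA side and TMEM165 and CLOCK on the KIT side were tested. Of these 5, 0 passed, against 3.47% of all tested genes, so the count alone says little. Their fitted log2 changes ranged from -0.15 for FIP1L1 to 0.07 for CHIC2, with SEs of 0.14 for CHIC2 and 0.50 for the dim GSX2. CHIC2, for example, read 413.2 at 192 h against 382.5 at 0 h. KDR, the VEGF receptor gene beside KIT, read between 9.1 and 15.5 in its brightest probe set and was below the filter. LNX1 on the PDGFRA side was below the filter too, and SRD5A3 on the KIT side had no probe set named for it alone.

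**Figure D2:**
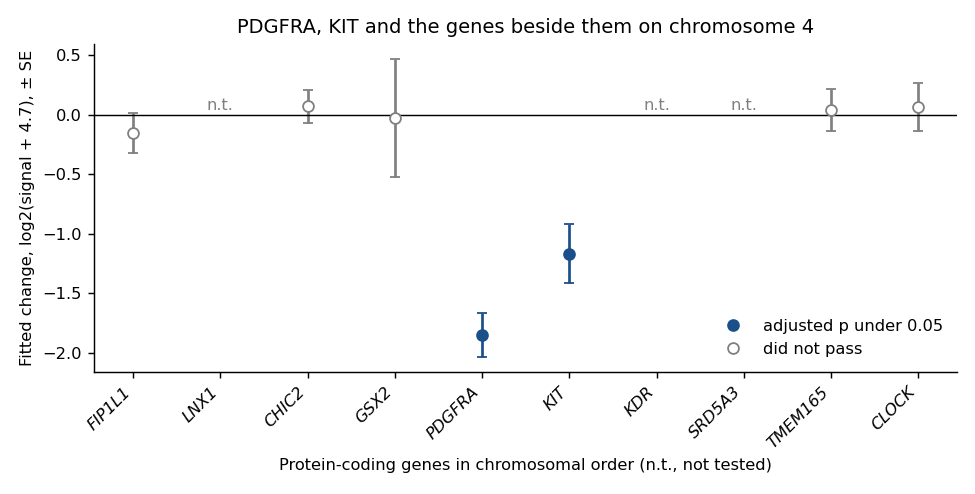
Fitted log2 change over the course ± SE (vertical axis) for PDGFRA, KIT and the protein-coding genes beside them in chromosomal order (horizontal axis); filled points passed an adjusted p under 0.05. PDGFRA at -1.85 and KIT at -1.17 stand below the tested neighbours, which lie between -0.15 and 0.07.

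The growth factors PTN and MDK fell too. PTN is heparin-binding and acts on neurite growth. Its brightest probe set, 211737_x_at, read 190.6, 189 and 195.7 at 0, 24 and 48 h, then 114.1 at 96 h and 93.2 at 192 h. In this probe set the early arrays were level and the drop came between 48 and 96 h. At 192 h PTN was 50.1% of its 0 h level on the scale with 4.7 added. Its fitted log2 change was -1.08 ± 0.24 (SE; limma adjusted p = 0.0316), with an exact permutation p of 0.0833 over array orders.

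PTN's other 2 kept probe sets were also lower at 192 h than at 0 h. Probe set 209465_x_at read 161.8, 183.6, 122.9, 125.5 and 77.4, and 209466_x_at read 131.4, 145.2, 162.5, 94.5 and 67.9 in order of time. Both had their lowest signal at 192 h. The timing differed, as 209465_x_at was already lower at 48 h than at 0 h and read much the same at 96 h. In the fit over all kept probe sets they had -1.03 ± 0.24 (limma adjusted p = 0.0544) and -0.96 ± 0.30 (adjusted p = 0.140), so neither passed. The suffix x of all 3 marks probe sets with probes that can hybridise to other transcripts as well. The fourth probe set, 208408_at, was dim at 3.9 to 15.5. As a gene, PTN did not pass without the 24, 96 or 192 h array (limma adjusted p = 0.0702, 0.0764 and 0.206).

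MDK, the close relative of PTN and known as a factor of embryonic and tumour tissue, has 1 probe set, 209035_at. It read 1108.4, 981, 910.1, 845.9 and 671.3 in order of time. Like PDGFRA, MDK was lower on every array than on the array before it. The fall was smaller: MDK at 192 h was 60.7% of its 0 h level, and 4.3% of tested genes were as low. In the limma fit the change was -0.66 ± 0.13 (SE; adjusted p = 0.0175), and the exact permutation p was 0.0167. Without the 0 h array MDK had an adjusted p of 0.134, and without the 192 h array 0.140.

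Promoter sequences are shown for member genes that fell, since they moved in the same direction. They cover PDGFRA, KIT and PTN, 3 of the 4, because no promoter sequence of MDK was available here. The RefSeq table of GRCh38.p14 holds an entry for PTN and KIT and 2 for PDGFRA, with the 250 bases before the annotated start printed 5′ to 3′ on the gene's strand. Capitals mark the letters TGACAG, the core bound by MEIS and related TALE factors.
PDGFRA, upstream start, chr4:54229043-54229292, + strand: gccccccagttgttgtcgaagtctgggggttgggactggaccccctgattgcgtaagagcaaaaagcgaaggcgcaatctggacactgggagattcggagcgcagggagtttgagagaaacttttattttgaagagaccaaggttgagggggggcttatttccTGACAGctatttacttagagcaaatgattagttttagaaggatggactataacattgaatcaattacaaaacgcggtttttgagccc
PDGFRA, downstream start, chr4:54233710-54233959, + strand: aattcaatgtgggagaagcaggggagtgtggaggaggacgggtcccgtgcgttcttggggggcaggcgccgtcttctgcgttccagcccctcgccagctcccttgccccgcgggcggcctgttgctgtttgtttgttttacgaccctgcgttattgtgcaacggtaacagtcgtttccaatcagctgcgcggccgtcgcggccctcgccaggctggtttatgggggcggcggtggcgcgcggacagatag
KIT, chr4:54657707-54657956, + strand: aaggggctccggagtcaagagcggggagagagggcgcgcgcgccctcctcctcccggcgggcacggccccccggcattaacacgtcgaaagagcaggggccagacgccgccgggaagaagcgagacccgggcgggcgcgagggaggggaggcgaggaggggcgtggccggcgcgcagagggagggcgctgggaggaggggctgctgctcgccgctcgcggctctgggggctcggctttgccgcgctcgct
PTN, chr7:137343734-137343983, - strand: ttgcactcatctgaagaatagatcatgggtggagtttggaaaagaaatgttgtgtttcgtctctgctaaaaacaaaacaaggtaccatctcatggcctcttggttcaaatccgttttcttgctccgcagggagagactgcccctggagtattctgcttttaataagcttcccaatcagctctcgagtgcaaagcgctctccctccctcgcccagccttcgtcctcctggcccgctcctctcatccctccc

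This was the only motif searched, on both strands. TGACAG or its reverse complement CTGTCA was found in 1 of these 4 windows, the upstream PDGFRA start, where it begins 87 bases before the start. The windows of ALK, EGFR, ERBB2, ERBB4 and PDGFRB, not printed here, were searched too and held no match. The same letters on either strand were in 13.0% of the 35116 promoter windows of this length, and nothing is read from 1 match in 4 windows. A match is only a run of letters in this window, and binding was not measured. The windows differ in base composition: KIT's holds 34 CG dinucleotides, a number that 6.84% of all windows reach, while that of PTN and the upstream window of PDGFRA hold 8 each and the downstream window of PDGFRA holds 25, against a median of 11 over all windows.

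ALK, the receptor most tied to neuroblastoma in this group, did not pass. Its brighter probe set, 208212_s_at, read 142.9, 186.7, 128, 146 and 256.5 in order of time. The 192 h array was the highest, and the 48 h array was below 0 h. The other, 208211_s_at, read 100.3 at 0 h, 60.5, 74 and 64.5 in between and 107.3 at 192 h. It was thus lower than at 0 h on 3 induced arrays and close to 0 h on the last. The probe sets differed most at 24 h, where the brighter was at 130% and the dimmer at 62.1% of the 0 h level on the scale with 4.7 added.

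For the gene, the limma fit gave ALK 0.52 ± 0.30 (SE; adjusted p = 0.414), with an exact permutation p of 0.35. Without the 192 h array the fitted log2 change of ALK was -0.18 (adjusted p = 0.846). With the spike-in level in the model it was 1.21 and passed (limma adjusted p = 0.0245), while the dimmer probe set had 0.35 with an adjusted p of 0.824 in the fit over all kept probe sets. At 192 h, 3.58% of tested genes were as high relative to 0 h as ALK.

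**Figure D3:**
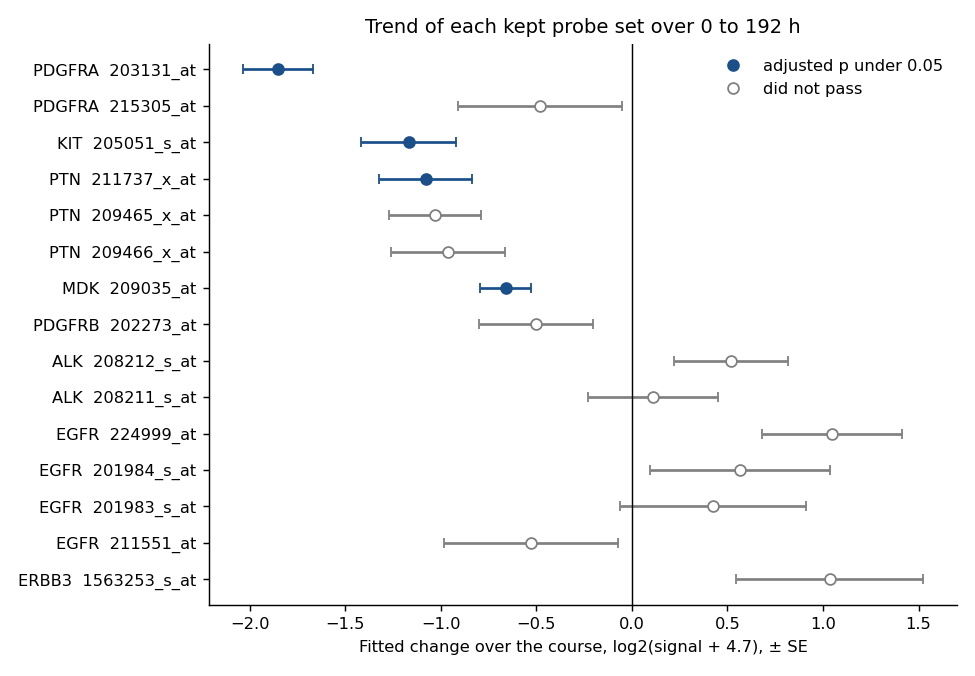
Fitted log2 change over the course ± SE (horizontal axis) for each of the 15 member probe sets past the signal filter, from the fit over all 22487 kept probe sets; filled points had an adjusted p under 0.05. The 4 that passed are 1 probe set each of PDGFRA, KIT, PTN and MDK, all negative, and the EGFR probe sets lie on both sides of 0.

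EGFR, which binds EGF and related ligands, had higher signals at later times in its brightest probe set without passing. Probe set 224999_at read 19.1, 33.2, 28.4, 33.9 and 53.8 in order of time. Every induced array was above the 0 h array. On the scale with 4.7 added, the 192 h signal was 2.46-fold that at 0 h, and 1.22% of tested genes were as high. The fitted log2 change was 1.05 ± 0.37 (SE; limma adjusted p = 0.169) and the exact permutation p was 0.05.

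The other 3 kept EGFR probe sets were dimmer and did not move together. Probe set 201984_s_at read 33.7 at 192 h against 16.2 at 0 h and 201983_s_at 32.8 against 17.5, but both were back near their 0 h level at 96 h, at 15.5 and 14.9. Probe set 211551_at read 14.1 at 192 h against 23.1 at 0 h. Their fitted log2 changes were 0.57, 0.42 and -0.53, and 0 of the 3 passed (limma adjusted p = 0.666, 0.769 and 0.678). The remaining 5 EGFR probe sets stayed between 1 and 19.7.

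ERBB3 was measured above the filter by 1 of 5 probe sets. Probe set 1563253_s_at read 14.9, 11.9 and 13.3 at 0, 24 and 48 h and 32.7 and 27.3 at 96 and 192 h. The late pair was thus above the early arrays. Each early signal was below the level that the filter asks of the mean. The probe set was therefore kept only through its late pair, and the fit is not independent of that choice. The limma fit gave 1.03 ± 0.50 (SE; adjusted p = 0.316), with an exact permutation p of 0.183. The other 4 probe sets stayed between 1 and 20.8, and 202454_s_at among them read 1 at 192 h against 5.6 at 0 h. Of the 5 Schwann cell and glial markers with a probe set 0 passed the filter, their summed signal was 25.1 to 41.3, and SOX10 lay between 2.1 and 13.4.

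PDGFRB, the receptor for PDGF-BB known from pericytes, read 54.5, 52.8 and 58.5 at 0, 24 and 48 h and 37.6 and 40 at 96 and 192 h. The late arrays were below the early ones, but PDGFRB did not pass (-0.50 ± 0.31, limma adjusted p = 0.456, exact permutation p = 0.183). ERBB2, which pairs with the other ERBB receptors and has no ligand of its own, had 3 probe sets with signals of 1 to 23.8. The 4 probe sets of the neuregulin receptor ERBB4 had 1 to 15. None of these 7 reached a mean of 17.9, so their levels were not tested, and whether such signals lie above background was not analysed here.

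Genes whose log2 changes from 0 h were closest to those of a member were found by the root mean square difference over the 4 induced arrays, for the 5 tested members that spanned at least 1 on the log2 scale. Closest to PDGFRA were GKAP1 (0.13), ARHGAP28 (0.16) and EMB (0.20). GKAP1 read 893.2, 780.2, 532.6, 365.5 and 273.4 in order of time. Closest to KIT were PAQR5 (0.12), the ETS factor gene ETV1 (0.12) and the phosphodiesterase gene PDE1C (0.13), and ETV1 shared the higher 48 h value, with 100.3, 63.1, 78.3, 48.3 and 37.8. Nearest to PTN were the potassium channel gene KCNJ4 (0.04), the collagen gene COL25A1 (0.07) and the semaphorin receptor gene NRP2 (0.10), to EGFR the WNT inhibitor gene SFRP1 (0.11), PTPRN (0.12) and RBM4 (0.13), and to ERBB3 ZNF771 (0.12), DPP6 (0.14) and KIFC2 (0.15). With 4 differences per gene and 11944 genes, such matches describe these arrays only.

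The rest of the pathway was followed in 7 gene lists, read against the 3.47% of all genes that passed. Among ligands of these receptors 7 of 18 were tested, 0 rose and 1 fell, with a median fitted log2 change of 0.23. PDGFC, a ligand of PDGFRA, fell: it read 375.3, 331.9, 349.1 and 250 at 0, 24, 48 and 96 h and 159.4 at 192 h (-1.13 ± 0.22, limma adjusted p = 0.0137). PDGFD, a ligand of PDGFRB, read lower on each array than on the one before, with 36.1 at 192 h against 69.4 at 0 h, and had -0.91 with an adjusted p of 0.120. The ALK ligand gene ALKAL2 read 27.6, 12.9, 32.3, 33.2 and 37.9 (0.76, adjusted p = 0.456). PDGFC lost its call without the 192 h array (adjusted p = 0.175) and with the mean of its probe sets (adjusted p = 0.0601).

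Of the co-receptors of ALK, midkine and pleiotrophin 8 of 11 were tested, 0 rose and 1 fell, with a median of 0.004. The syndecan gene SDC2, a heparan sulphate proteoglycan, read 1674.1, 1572.4, 1442.1, 1222.3 and 1204.3 in order of time (-0.52 ± 0.13, limma adjusted p = 0.0450). Leaving out any 1 array ended the call of SDC2. SDC4 (-0.50) and the integrin gene ITGAV (-0.48) did not pass, and PTPRZ1, LTK and PTPRB were below the filter.

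Downstream, 0 of 21 tested adaptor and proximal signalling genes passed, with a median of -0.0005; 5 had an unadjusted limma p under 0.05, which 17% of all tested genes had. The adaptor gene SHC2 came nearest, with 96.5 at 192 h against 48.2 at 0 h (1.07 ± 0.27, adjusted p = 0.0548). PIK3R1, the regulatory subunit of PI3 kinase, had 0.64 and the docking protein gene GAB2 -0.57. Of the RAS and ERK cascade 6 of 13 genes were tested and 0 passed, with 1 at an unadjusted p under 0.05, against the same 17% of all genes, and a median of 0.20. HRAS had 0.33, MAPK3 0.33 and ARAF -0.33.

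ERK output genes, whose transcription follows ERK activity, had 9 of 13 members tested, 0 that rose and 2 that fell, with a median of -0.32. PHLDA1 fell, reading 112.6, 57.4, 55.7, 30.7 and 32.9 in order of time (-1.64 ± 0.33, limma adjusted p = 0.0184). ETV5, an ETS factor, fell with 386.7, 253.5, 271.7, 128 and 147.3 (-1.48 ± 0.25, adjusted p = 0.00823). Both were lower on every induced array than at 0 h. ETV1 was just outside the threshold (-1.19 ± 0.30, adjusted p = 0.0504). In the other direction EGR1, a rapid response gene, read 116 at 192 h against 28.7 at 0 h (1.17, adjusted p = 0.399).

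Without the 0 h array neither PHLDA1 (limma adjusted p = 0.338) nor ETV5 (adjusted p = 0.115) passed, and with the spike-in covariate they had 0.111 and 0.0659. Feedback inhibitors had 13 of 14 genes tested and 0 that passed, 2 at an unadjusted p under 0.05 (17% of all genes), with a median of -0.12. LRIG1, which promotes degradation of ERBB receptors, read 61.7 at 192 h against 117 at 0 h (-0.79, adjusted p = 0.193). The ERK phosphatase gene DUSP6 had -0.72 and LRIG3 -0.57. Among 17 tested other receptor tyrosine kinases 1 rose and 0 fell, with a median of -0.13: the neurotrophin-3 receptor gene NTRK3 (2.43 ± 0.33, adjusted p = 0.00260). It read 47.8, 54.2, 74.4, 114.5 and 299.5 in order of time, higher on each array than on the one before. Without the 192 h array NTRK3 had 1.59 (adjusted p = 0.0457). MERTK had -1.06 (adjusted p = 0.172) and FGFR3 1.05 (adjusted p = 0.0877) without passing.

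**Figure D4:**
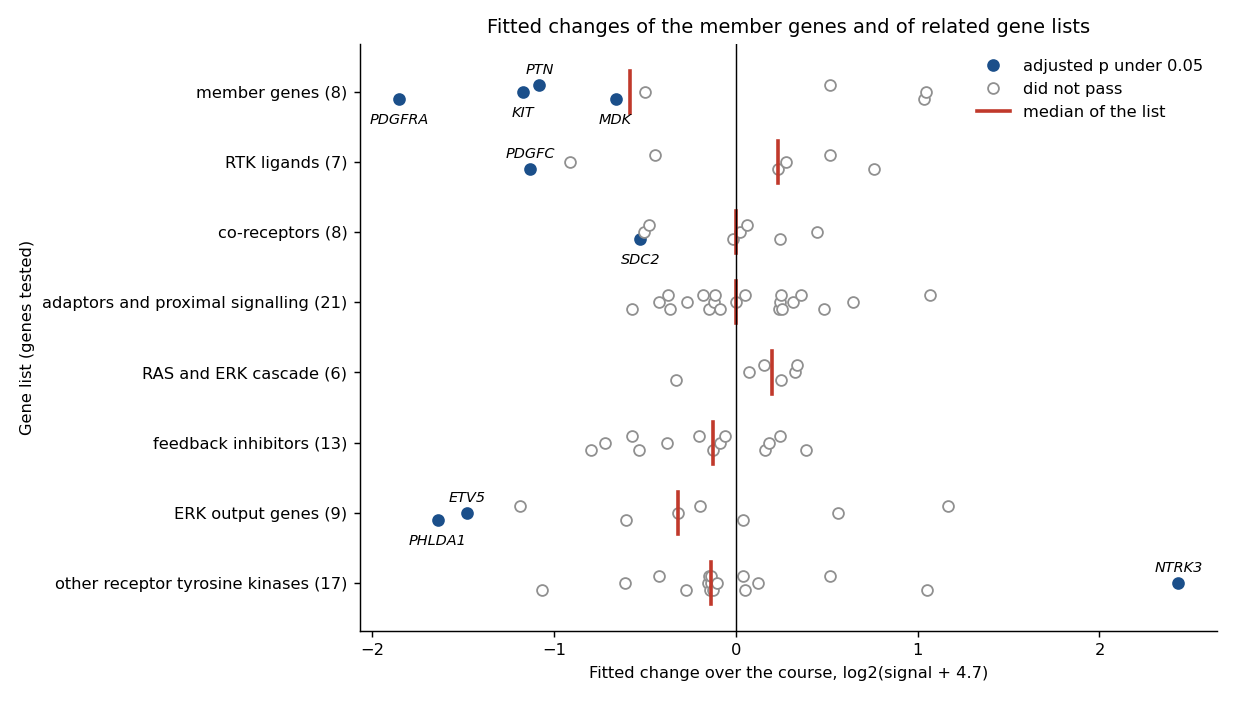
Fitted log2 change (horizontal axis) of each tested gene, by list (vertical axis, number tested in brackets); filled points had an adjusted p under 0.05 over all genes and red bars are list medians. Of the 8 member genes 4 passed, all negative, and of the related lists PDGFC, SDC2, PHLDA1 and ETV5 are filled on the negative side and NTRK3 on the positive side.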

How the data were processed

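The authors' deposited table gives 1 log2 value per probe set and array. Per the submitters' processing notes the tools were MAS5 and GCOS, with no version. How the authors took logs and scaled is not given in the sources used here, so both were inferred. With 2 raised to the power of each deposited value, 100% of the resulting signals lay within 0.01 of a multiple of 0.1. The 2% trimmed means of these signals were 100.02 to 100.03. The arrays were therefore not rescaled. MAS5 subtracts a mismatch background, which makes low signals noisy, and the number of arrays limits the precision. The array annotation, which can be old, names 1 gene for 41097 probe sets, several for 1801 and none here for 11777. Gene identifiers matched the RefSeq table for 41043 of the first and changed 0 symbols. Some list genes have no probe set named for 1 gene here.

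Signals were returned to the linear scale, 4.7 was added (median over arrays of the 25th percentile) and log2 was taken. Left out were 62 control probe sets, those named for several genes or none, and those with a mean signal under 17.9. The brightest remaining probe set stood for each of 11944 genes. The trend was fitted with limma 3.58.1 in R 4.3.3 (lmFit, then eBayes with trend=TRUE; 3 residual degrees of freedom and 9.07 from the prior; two-sided; Benjamini-Hochberg), and again over all 22487 kept probe sets. The exact permutation test reordered the arrays in all 120 ways, two-sided. No set test was run.

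The text names all member genes; in each list the genes past the threshold, filled up to 3 with the largest changes; and the 3 genes most like each tested member that spans at least 1 on the log2 scale. EGR1, the marker genes with values and the genes beside PDGFRA and KIT were added after their values were seen. The members and lists were chosen with earlier results of these data known. Alternatives covered the offset, filter, scaling, time scale, choice of probe set, poly-A covariate and leaving out each array.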

Additional observations from a re-analysis of the deposited data

How the results depend on the processing

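Trends were computed again under 14 alternatives, except that EGFR and ERBB3 were below the higher filter. PDGFRA passed in all 14, MDK in 11, KIT and PTN in 9 each, and all 4 kept their direction in each. Without a filter the larger set of dim genes entered the adjustment, and 21 genes passed in place of 415 (16 rose and 5 fell), with 1 member gene (PDGFRA), 0 member probe sets, and 0 genes among ligands, co-receptors, ERK output genes and other kinases. PTN (-1.08), MDK (-0.66) and KIT (-1.17) did not pass then, nor did the markers COL1A1, CHGA and CHGB (limma adjusted p = 0.108, 0.139 and 0.0670). With the poly-A covariate 230 genes passed (118 rose, 112 fell), ALK passed at 1.21 and PTN at -1.23 did not, and 0 co-receptors and 0 ERK output genes passed. With hours in place of steps KIT (-1.13, limma adjusted p = 0.0506) did not pass, and 0 co-receptors and 0 ERK output genes did. With the mean of a gene's probe sets 0 ligands, 0 co-receptors, 1 adaptor gene and 1 ERK output gene passed, and with a filter at a mean signal 2 times higher 1 adaptor gene (SHC2). With array medians set equal, which moved the median of all genes to -0.11, 43.5% of called genes rose against 58.1% in the fit as reported, 0 co-receptors passed, and 2 other kinases did (NTRK3 and FGFR3). An offset 4 times larger put EGFR at 192 h at 0.94 above 0 h in place of 1.30. The cause of these differences was not tested.

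Leaving out 1 array at a time gave 190 to 416 genes past the threshold (121 to 249 rose, 69 to 167 fell), 1 to 4 member genes and 1 to 4 member probe sets. It gave 0 to 1 ligands, 0 co-receptors and 0 to 3 ERK output genes. The lowest count of member genes, PDGFRA alone, came without the 192 h array. Fitted log2 changes were then -2.04 to -1.76 for PDGFRA, -1.37 to -0.86 for KIT, -1.48 to -0.84 for PTN, -0.71 to -0.51 for MDK and -0.18 to 0.70 for ALK, which turned negative without the 192 h array. No paired analysis was possible because each time point has 1 array and the labels give no replicate numbers. Dim probe sets limit what can be said of ERBB2, ERBB4 and most EGFR and ERBB3 probe sets.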
